A study of Mus musculus with 5 samples.

Results

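The interferon-induced transmembrane (IFITM) family in mouse macrophages was described from 5 members, *Ifitm1*, *Ifitm2*, *Ifitm3*, *Ifitm6* and *Ifitm10*, out of 17058 genes with a count in at least 1 library. The members were taken by symbol and matched to Entrez identifiers 68713, 80876, 66141, 213002 and 320802 in that order. They were chosen because *Ifitm6* was lower in the *Adam17*-/- coculture while other neutrophil-linked genes were higher, so the values of the members and of the neutrophil genes in this contrast are given as a description and not as a test. All 5 had a count in at least 1 library, and 4 of the 5 had enough counts to enter the fit across 12576 genes.

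RNA-Seq was performed on bone marrow-derived macrophages (BMDMs), macrophages grown with M-CSF from the bone marrow of young adult Balb/c mice, after 48 hours of coculture with 4T1 cells, a Balb/c mammary carcinoma line. The WT group (2 libraries) shared medium with unedited 4T1 cells, and the *Adam17*-/- group (3 libraries) with 4T1 cells of the CRISPR/Cas9 knock-out line 2.8. A porous membrane separated the cells, so that the sequenced macrophages of both groups carried an intact *Adam17*, the gene of a protease that sheds membrane-bound ligands and receptors. Edited cells had been sorted singly and expanded, and all *Adam17*-/- libraries came from 1 knock-out line, so that the loss of *Adam17* and any other trait of this line cannot be told apart.

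IFITM proteins are small membrane proteins that lodge in the plasma membrane and in endosomes, where they hinder the fusion of enveloped viruses with the cell. IFITM3 acts mainly in late endosomes, IFITM1 mainly at the cell surface, and both carry palmitate groups that anchor them. Type I and type II interferons raise their transcription through interferon-stimulated response elements, although myeloid cells also transcribe them without added interferon. *Ifitm6* is a rodent member transcribed in bone marrow myeloid cells, and *Ifitm10* is a distant, more conserved member of unknown function.

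In GRCm38 the clustered members lie on chromosome 7, and *Ifitm10* lies on the same chromosome outside the cluster. GENCODE places *Ifitm2* at chr7:140954837-140955987, *Ifitm3* at chr7:141009586-141010770 and *Ifitm6* at chr7:141015706-141016908, each on the minus strand with 2 exons. *Ifitm1* lies on the plus strand, with 1 transcript at chr7:140968040-140969825 (2 exons) and another at chr7:140967221-140969825 (3 exons). *Ifitm10* spans chr7:142326110-142372441 on the minus strand with 4 exons.

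Start-site sequence is shown for the members whose window held a searched motif, as the groups differ in transcripts that begin there. Windows ran from 250 bases before to 50 after each RefSeq start site, and all 5 members matched a window. The core of the interferon-stimulated response element, searched as GAAA, any 2 bases and GAAA on both strands, occurred in 3.44% of 32851 mouse windows. It was found at 1 place in *Ifitm2* and at 2 places in *Ifitm3*, whereas these letters were not in the windows of *Ifitm1* (its downstream start), *Ifitm6* or *Ifitm10*. The TATA box, searched as TATAAA on the gene's strand only, occurred in 8.32% of windows and among the members in *Ifitm6* alone. The gamma-activated site, searched as TTCNNNGAA on both strands, occurred in 8.3% of windows and was found in *Ifitm3*, where it overlapped the downstream response element core, and in *Ifitm6*. The stretches below are RefSeq sequence of GRCm38.p6, written 5′ to 3′ on the minus strand that carries these genes. Capitals mark the response element cores in *Ifitm2* and *Ifitm3* and the TATA box in *Ifitm6*.
Ifitm2, the 110 bases before the RefSeq start site, chr7:140955962-140956071: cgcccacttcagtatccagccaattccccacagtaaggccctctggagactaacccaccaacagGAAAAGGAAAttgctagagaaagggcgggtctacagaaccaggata
Ifitm3, the 30 bases from the RefSeq start site on, chr7:141010715-141010744: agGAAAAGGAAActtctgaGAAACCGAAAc
Ifitm6, the 110 bases before the RefSeq start site, chr7:141016893-141017002: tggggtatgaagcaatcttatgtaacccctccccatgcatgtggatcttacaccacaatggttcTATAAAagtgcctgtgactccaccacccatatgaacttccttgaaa
The RefSeq start sites (140955961 for *Ifitm2*, 141010744 for *Ifitm3* and 141016892 for *Ifitm6*) lie downstream of the GENCODE starts at 140955987, 141010770 and 141016908, so that the last bases of the *Ifitm2* and *Ifitm6* stretches belong to the first exon in GENCODE. Counted from the RefSeq start sites, the *Ifitm2* core began at base -46, the *Ifitm3* cores at bases 3 and 20, with the start site as base 1, and the *Ifitm6* TATA box at base -46. A match is a run of letters and was not tested for binding.

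The libraries held between 14658694 and 20788373 expected counts, expected meaning that reads fitting more than 1 transcript were shared out between them by an estimate. Levels are given as CPM, in which counts are scaled to a common library total after TMM normalization, and a count of 3 was worth 0.157 to 0.197 CPM. The macrophage label was checked on 10 macrophage genes. The most abundant, *Lyz2*, *Itgam* and *Csf1r*, ranged from 4047 to 12836 CPM, and the least abundant, *Mertk*, from 68.5 to 72.5 CPM. Of 10 epithelial genes, the carcinoma marker *Epcam* had 0 or 1 count and *Krt5* had 0 in every library. *Krt18* of the same list had 5 to 8 counts and *Cdh1* had 173 to 242 counts (10.6 to 13.2 CPM). *Adam17* itself, measured in the macrophages and therefore no check of the edit in the 4T1 cells, was at 198 and 200.0 CPM in the WT libraries and at 152, 164 and 161 CPM in the *Adam17*-/- libraries. Between WT replicates 1 and 2, counts differed by more than between any pair of *Adam17*-/- libraries (chi-square per degree of freedom of 25.7 against 5.22 to 6.32).

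*Ifitm1*, *Ifitm2*, *Ifitm3* and *Ifitm6* were each lower in every *Adam17*-/- library than in either WT library, by 1.48-fold (*Ifitm2*) to 1.91-fold (*Ifitm6*). *Ifitm10*, the remaining member, was at or under the level of 3 counts throughout. Summed as 1 feature, the clustered members stood at 3014 ± 131 CPM (SD, n = 2) with WT cells and at 1802 ± 155 CPM (SD, n = 3) with *Adam17*-/- cells, a log2 fold change of -0.74 with a standard error of 0.0981. All 4 tested members passed as lower at an edgeR adjusted p of 0.05 or less, beside 16.8% of the 12576 genes (31.7% passed in either direction), and in all 4 the groups did not overlap, with every *Adam17*-/- library lower, beside 29.7% of genes (28.4% had every *Adam17*-/- library higher). None of the 4 reached an absolute log2 fold change of 1 in this fit, which 0.867% of genes passed as lower and 3.36% as higher. As the members were chosen on this contrast, nothing is read from these counts.

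*Ifitm3*, whose product restricts influenza virus and other viruses that enter through endosomes, was the most abundant member. Its level was 1155 and 1247 CPM in WT replicates 1 and 2 and 729, 682 and 798 CPM in *Adam17*-/- replicates 1, 2 and 3. The lowest WT library lay well above the highest *Adam17*-/- library, and the spread within each group was small beside that gap. The group means were 1201 ± 65.2 CPM (SD, n = 2) and 737 ± 58.3 CPM (SD, n = 3), with a log2 fold change of -0.71 and a standard error of 0.0930.

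*Ifitm1*, whose product sits mainly at the cell surface, was measured at 905 and 859 CPM in the WT libraries and at 478, 400.3 and 539 CPM in the *Adam17*-/- libraries. The groups were again separate, with *Adam17*-/- replicate 2 the lowest library. Means of 882 ± 32.4 CPM (SD, n = 2) and 472 ± 69.5 CPM (SD, n = 3) gave a log2 fold change of -0.90 with a standard error of 0.117.

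*Ifitm2*, a close paralog of *Ifitm3* that also acts in endosomes, differed least. The WT libraries held 673 and 724 CPM and the *Adam17*-/- libraries 477, 457 and 478 CPM. These *Adam17*-/- values lay closer together than those of any other tested member. The means were 699 ± 36.6 CPM (SD, n = 2) and 471 ± 11.5 CPM (SD, n = 3), and the log2 fold change was -0.57 with a standard error of 0.0797.

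*Ifitm6*, the member used to choose the family, was the least abundant of the 4 and, relative to its mean, the most variable with WT cells. It was measured at 189 CPM in WT replicate 1, 276 CPM in WT replicate 2, and 117, 106 and 142 CPM in the *Adam17*-/- libraries. WT replicate 2 stood apart from WT replicate 1, which lay closer to *Adam17*-/- replicate 3 than to its own replicate. The means were 233 ± 61.7 CPM (SD, n = 2) and 122 ± 18.5 CPM (SD, n = 3), with a log2 fold change of -0.93 and a standard error of 0.161. Without WT replicate 2 the log2 fold change was -0.63, and without WT replicate 1 it was -1.18. Of the 12576 genes tested, 166 had a log2 fold change as low as that of *Ifitm6* or lower.

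*Ifitm10* held 1 and 2 counts with WT cells and 0, 2 and 1 counts with *Adam17*-/- cells, all under the level of 3 counts. No fold change is given for it, and its transcription was not detectable at this depth above that level.

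**Figure D1:**
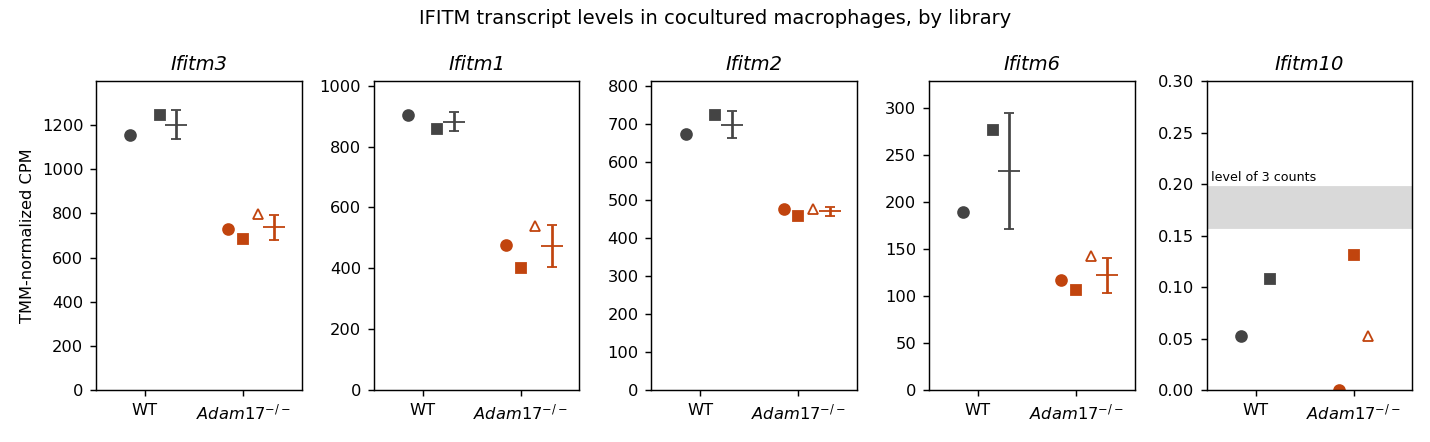
TMM-normalized CPM (vertical axes, each from 0 and on its own scale) of the 5 IFITM members in the WT and *Adam17*-/- cocultures; circles, squares and triangles are the libraries of replicates 1, 2 and 3, and the bar beside them is the mean ± SD, left out for *Ifitm10*. The 3 *Adam17*-/- libraries lie below both WT libraries for *Ifitm3*, *Ifitm1*, *Ifitm2* and *Ifitm6*, while every *Ifitm10* value lies under the grey band, the level of 3 counts (0.157 to 0.197 CPM).

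Levels were compared between members as FPKM, which is scaled to transcript length. With WT cells the FPKM levels ranked in the order *Ifitm3* (1949 ± 168), *Ifitm1* (1316 ± 5.86), *Ifitm2* (1138 ± 96.2), *Ifitm6* (465 ± 138) and *Ifitm10* (0.025 ± 0.0071; SD, n = 2), and no neighbours in that order overlapped. With *Adam17*-/- cells *Ifitm3* again had the highest FPKM (1324 ± 99.3; SD, n = 3), and *Ifitm2* (849 ± 21.7) and *Ifitm1* (788 ± 113) followed with values that overlapped. *Ifitm6* (268 ± 39.3) and *Ifitm10* (0.02 ± 0.02) came last. The same order was found with TMM-normalized counts per kilobase in each group.

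*Ifitm3* was among the most abundant transcripts of these macrophages, at rank 16 and 14 by FPKM in the WT libraries and at ranks 20 to 23 in the *Adam17*-/- libraries, out of 14997 to 15591 genes with FPKM above 0. *Ifitm6* ranked 139 and 79 with WT cells and between 179 and 233 with *Adam17*-/- cells. The make-up of the family moved little beside its total. *Ifitm3* took 40.0% ± 0.199 (SD, n = 2) of the summed IFITM FPKM with WT cells and 41.0% ± 0.463 (SD, n = 3) with *Adam17*-/- cells, higher in every *Adam17*-/- library. The *Ifitm1* share was 27.1% ± 2.33 and 24.3% ± 1.54, and its ranges overlapped between the groups. The *Ifitm2* share was 23.4% ± 0.0739 and 26.4% ± 1.70, also without overlap. For *Ifitm6* the share was 9.47% ± 2.06 and 8.29% ± 0.566, with overlap.

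The members share sequence, and a read that fits more than 1 member would be divided between them. Their coding sequences were identical at 82.1% of aligned bases for *Ifitm1* with *Ifitm2* and for *Ifitm1* with *Ifitm3*, at 80.9% for *Ifitm2* with *Ifitm3*, and at 69.4% to 70.3% for *Ifitm6* with these members. The longest run shared by a pair of transcripts was 69 bases (*Ifitm2* with *Ifitm3*) and did not exceed 25 bases between *Ifitm6* and any other member. The gene sums of expected counts were whole numbers for all 5 members in every library. Summed as 1 feature, *Ifitm2* and *Ifitm3* had a log2 fold change of -0.65 with a standard error of 0.0890.

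*Ifitm1* was the only member with more than 1 transcript in the deposited files, and its transcripts differed in direction as FPKM. The downstream-start transcript was at 1119 and 1109 FPKM in the WT libraries and at 507, 431 and 603 FPKM in the *Adam17*-/- libraries. The upstream-start transcript was at 201 and 203 FPKM in the WT libraries and at 297, 236 and 289 FPKM in the *Adam17*-/- libraries. The former was lower in every *Adam17*-/- library and the latter higher. As a share of *Ifitm1* expected counts, the upstream-start transcript stood at 14.7% and 14.9% with WT cells (mean 14.8% ± 0.159, n = 2) and at 36.0%, 34.4% and 31.5% with *Adam17*-/- cells (mean 34.0% ± 2.31, n = 3). This is a description without a test.

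In the GENCODE models the *Ifitm1* start sites lie 819 bases apart, the transcripts share 536 bases and the whole coding sequence of 318 bases, and 200 bases belong only to the downstream-start and 346 only to the upstream-start transcript. The protein encoded is therefore the same, and reads can separate the transcripts only at their 5′ ends. The transcript counts were not whole numbers although their sums were, so that some reads had been divided between them. The models used for the files were 702 bases (downstream start) and 676 bases (upstream start) long, shorter than the GENCODE models of 736 and 882 bases, and the lengths of the separating stretches in them are not given in the sources used here.

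**Figure D2:**
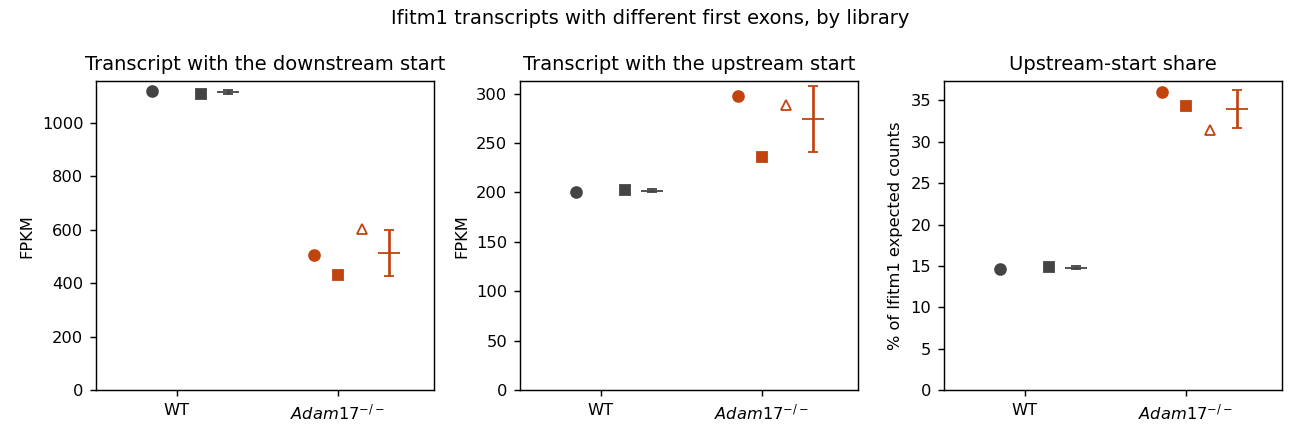
FPKM of the *Ifitm1* transcripts with the downstream and the upstream start, and the upstream-start share of *Ifitm1* expected counts in percent, each axis from 0; symbols are libraries of replicates 1 (circle), 2 (square) and 3 (triangle), bars are mean ± SD. With *Adam17*-/- cells the downstream-start transcript lies lower (514 ± 86.0 against 1114 ± 7.11 FPKM) and the upstream-start transcript higher (274 ± 33.3 against 202 ± 1.25 FPKM), and the share is 31.5% to 36.0% against 14.7% to 14.9%.

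The wider family was counted in the same way. Of 9 further dispanins, the superfamily of IFITM-like membrane proteins, 3 were tested and 0 passed in either direction (beside 31.7% of all genes), with a median log2 fold change of 0.28 beside 0.01 for all genes. *Ifitm5*, a bone-cell member encoded in the same cluster, held 119 and 112 counts with WT cells and 97, 82 and 116 counts with *Adam17*-/- cells. After normalization these values overlapped (log2 fold change -0.13, standard error 0.15). *Ifitm7* had 3 counts or fewer in every library, and *Tmem233* and *Syndig1* had 0.

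The genes around the cluster were counted in the same fit. Of 16 annotated genes that start within 100 kb of the clustered members, 6 were tested, 0 passed as higher (beside 14.9% of all genes) and 1 passed as lower (beside 16.8%), a share near that of all genes. That gene was *Psmd13*, a proteasome subunit, with a log2 fold change of -0.35. *Pgghg*, *Ric8a*, *Sirt3* and *Sigirr* had log2 fold changes of -0.04, -0.04, 0.21 and -0.23 and did not pass. Within 100 kb of *Ifitm10*, 4 of 16 genes were tested, of which 1 passed as lower (beside 16.8% of all genes) and 1 as higher (beside 14.9%). The lower gene was *Ctsd*, the lysosomal protease cathepsin D (-0.56), and the higher gene was *Syt8* (0.91).

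**Figure D3:**
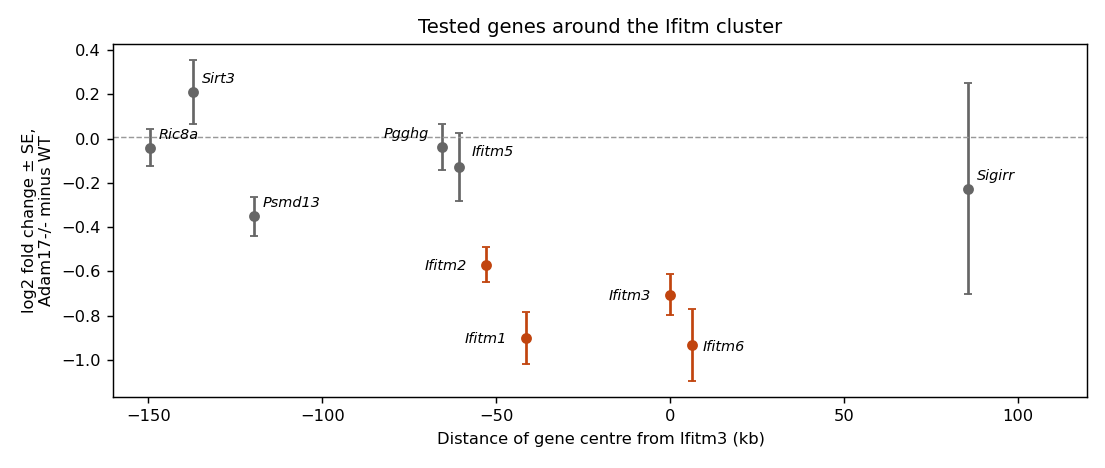
Log2 fold change (*Adam17*-/- minus WT, edgeR, ± standard error) of the tested genes around the *Ifitm* cluster against the distance of each gene's centre from that of *Ifitm3* in kb; red points are members, grey points neighbours, and the dashed line is the median of all genes (0.01). The 4 members lie between -0.93 and -0.57 and the 6 neighbours between -0.35 and 0.21.

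The IFITM genes are textbook interferon targets, and the other targets were counted in the same fit. Of 35 interferon-stimulated genes, 33 were tested, 9 passed as higher with *Adam17*-/- cells (beside 14.9% of all genes) and 1 passed as lower (beside 16.8%), and their median log2 fold change was 0.10. Those that rose most were *Mx2* (0.63), *Mx1* (0.60) and *Ifit2* (0.56), which encode antiviral effectors, and the gene that fell was *Lgals3bp* (-0.73), a secreted glycoprotein. *Mx1* was at 15.9 and 10.9 CPM in the WT libraries and at 21.0, 18.7 and 21.1 CPM in the *Adam17*-/- libraries. *Irf7* (-0.26) and *Isg15* (0.13) did not pass. The count of 9 was 1 without *Adam17*-/- replicate 1, 1 without replicate 2 and 2 without replicate 3, and none of the 9 reached a log2 fold change of 1. It was 5 with the replicate number added to the fit as a block. The 1 lower gene numbered 0 with limma on log2(FPKM + 0.1).

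Interferon receptors and their signalling genes were counted separately. Of 18, 16 were tested, with 1 passing as higher (beside 14.9% of all genes), 4 as lower (beside 16.8%) and a median log2 fold change of -0.11. *Jak2*, a kinase of the interferon gamma receptor, rose (0.41). *Ifnar2*, a chain of the type I interferon receptor (-0.37), *Ifngr1*, a chain of the interferon gamma receptor (-0.32), *Irf5* (-0.31) and *Jak1* (-0.27) fell. Of the interferons listed, *Ifng* had 0 counts in every library and *Ifnb1* had 0 or 1, at or under the level of 3 counts. The 4 lower genes numbered 0 without *Adam17*-/- replicate 1, 1 without replicate 2, 2 without replicate 3, and 0 with the replicate number added to the fit as a block, with library size only and with limma on either log2(FPKM + 0.1) or log2(FPKM + 1), but 6 without WT replicate 2 and 5 with DESeq2. The 1 higher gene became 0 without any 1 *Adam17*-/- replicate and with the block, 2 without WT replicate 1 and with limma and 0.1, and 3 with library size only and with limma and 1.

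Among 10 genes whose products modify or bind IFITM proteins, all 10 were tested, 2 passed as higher (beside 14.9% of all genes) and 4 as lower (beside 16.8%), with a median of -0.13. *Nedd4*, a ubiquitin ligase that targets IFITM3 for turnover, rose (0.86) from 6.23 and 3.25 CPM to 7.33, 9.28 and 9.32 CPM. *Setd7*, a lysine methyltransferase of IFITM3, also rose (0.31). *Vcp* (-0.61), an ATPase that extracts ubiquitinated proteins, *Fyn* (-0.48), a kinase that phosphorylates IFITM3, *Zdhhc7* (-0.34), a palmitoyltransferase, and *Zmpste24* (-0.27), a membrane protease, fell. *Zdhhc20*, the palmitoyltransferase best known to act on IFITM3, had a log2 fold change of 0.20 and did not pass. The 4 lower genes numbered 1 with library size only, with either limma fit and without *Adam17*-/- replicate 1 or 2, and 2 without replicate 3 and with the replicate block. The 2 higher genes numbered 1 with the block and without *Adam17*-/- replicate 1 or 2, and 0 without replicate 3.

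Other genes whose products restrict virus particles or their entry went both ways. All 11 were tested, 2 passed as higher (beside 14.9% of all genes) and 4 as lower (beside 16.8%), and the median was 0.04. *Ch25h*, which makes 25-hydroxycholesterol, fell by 3.42 on the log2 scale, from 12.3 and 8.17 CPM to 0.99, 0.79 and 1.06 CPM. *Ly6e*, a lipid-anchored restriction factor, was at 1458 and 1335 CPM with WT cells and at 1071, 1049 and 1182 CPM with *Adam17*-/- cells (-0.34), and *Marchf8* (-0.43) and *Serinc3* (-0.29) fell as well. *Gbp5* (0.94), a guanylate-binding protein, and *Serinc5* (0.38) rose. The 4 lower genes numbered 2 with library size only and without *Adam17*-/- replicate 1 or 2, and 1 with either limma fit and with the replicate block. The 2 higher genes numbered 1 with the block and without *Adam17*-/- replicate 1 or 3.

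The neutrophil genes, whose rise was part of how the family was chosen, are given as values. Of 21 secondary granule and mature neutrophil genes, 18 passed as higher and 2 as lower, beside 14.9% and 16.8% of all genes, and the median log2 fold change was 1.28. The largest log2 fold changes were those of *Itgb2l* (2.93), *Ltf* (2.18) and *Olfm4* (2.18). *Ltf* (lactoferrin) was at 20.8 and 18.2 CPM with WT cells and at 83.4, 107 and 75.3 CPM with *Adam17*-/- cells, and *S100a8* at 63.6 and 65.5 against 232, 227 and 207 CPM. The 2 lower genes were *Mmp9* (-0.65) and *Trem1* (-0.58). Of 9 primary granule genes, 3 passed as higher and 0 as lower, with a median of 1.24. They were *Ms4a3* (2.41), *Elane* (1.54) and *Prtn3* (0.78), and their count was 5 with library size only, with the replicate block and without WT replicate 1, 6 with no filter and without *Adam17*-/- replicate 1, and 2 with limma and 0.1 and with at least 10 counts in every sample. *Adam17*-/- replicate 2 stood apart in this list, with a summed level of 146 CPM against 59.4 and 69.0 CPM in *Adam17*-/- replicates 1 and 3 and 46.0 and 30.6 CPM in the WT libraries. *Elane* was at 37.0 CPM in that library and at 14.6 and 15.2 CPM in the other *Adam17*-/- libraries, and without it 3 genes of the list passed as higher.

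Ly6C-high monocytes also transcribe *Ifitm6*, and their genes went both ways. Of 12, all tested, 5 passed as higher (beside 14.9% of all genes) and 5 as lower (beside 16.8%), with a median of 0.24. *Chil3* (2.46), *Ly6c2* (1.81) and *Plac8* (1.04), all genes of classical monocytes, rose, while *Vcan* (-1.29), *S100a4* (-1.02) and *Fn1* (-0.88), a proteoglycan core, a calcium-binding protein and fibronectin, fell. *Fn1* was at 2855 and 3946 CPM in the WT libraries and at 1956, 1419 and 2180.2 CPM in the *Adam17*-/- libraries, and WT replicate 2 was the highest library, as for *Ifitm6*. The 5 lower genes numbered 3 with library size only, with limma and 1, without WT replicate 2 and without any 1 *Adam17*-/- replicate, and 2 with limma and 0.1. The 5 higher genes numbered 3 without *Adam17*-/- replicate 3.

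Macrophage genes were lower with the members. Of 10, all tested, 0 passed as higher and 8 as lower (beside 16.8%), with a median of -0.54, and the groups did not overlap for any of the 10, with every *Adam17*-/- library lower (beside 29.7% of all genes). With limma and 0.1 the count passing as lower was 5. Their summed level ranged from 28503 to 29261 CPM with WT cells and from 18526 to 20610.2 CPM with *Adam17*-/- cells, while that of the 21 late neutrophil genes ranged from 2362 to 2474 CPM and from 3413 to 3806 CPM. *Cd68* (-0.93), *Adgre1* (-0.66), *Lyz2* (-0.65) and *Itgam* (-0.64) had log2 fold changes in the range of the clustered members, and *Csf1r* (-0.29) and *Mertk* (-0.06) did not pass. The part of these lists in the IFITM result was not tested, and in bulk samples fewer cells of a type and less RNA per cell cannot be told apart.

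Other cell types contributed few counts. Of 10 epithelial genes, 1 was tested (*Cdh1*, log2 fold change 0.14) and 0 passed, with summed levels of at most 12.7 CPM with WT and 13.8 CPM with *Adam17*-/- cells. Of 6 lymphoid genes, 1 was tested and 0 passed, at summed levels of 0.487 to 1.52 and 1.20 to 2.17 CPM. Eosinophil, basophil and mast cell genes (12, of which 5 tested and 2 passed as higher, beside 14.9% of all genes) summed to 10.1 to 15.6 and 26.1 to 36.8 CPM. Dendritic cell genes (6, of which 5 tested and 2 passed as higher, beside the same 14.9%) summed to 10.6 to 16.0 and 19.6 to 26.9 CPM. The eosinophil, basophil and mast cell count was 4 without *Adam17*-/- replicate 1 and with no filter, and the dendritic cell count was 4 with library size only and with limma and 0.1.

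**Figure D4:**
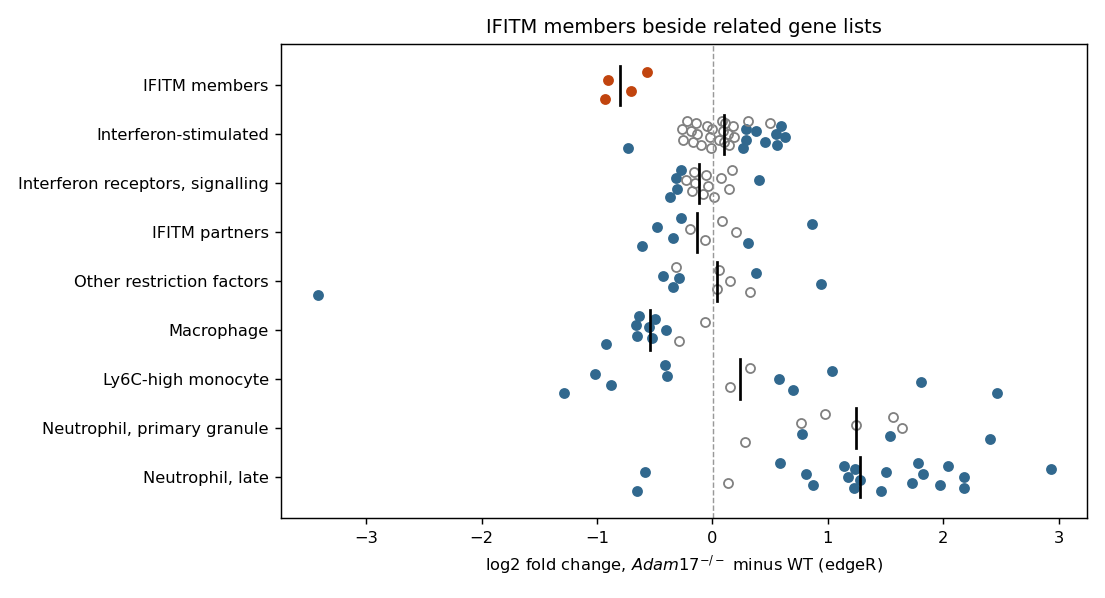
Log2 fold change (*Adam17*-/- minus WT, edgeR) of the tested genes in the IFITM family and in 8 lists, 1 point per gene; filled points passed an adjusted p of 0.05 or less, open points did not, and black bars are medians. The 4 IFITM members lie between -0.93 and -0.57, interferon-stimulated genes centre on 0.10, macrophage genes on -0.54 and late neutrophil genes on 1.28; the dashed line is the median of all genes (0.01).

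Genes with the library profile most like that of a member were found by the root mean square difference of log2 CPM, each gene centred on its mean over the 5 libraries, among all 12576 genes. Nearest to *Ifitm6* were *Ank2* (0.0846), *Hsd17b7* (0.0913), *Fn1* (0.108), *Ackr3* (0.131) and *Bend3* (0.143). *Hsd17b7* is an enzyme of sterol synthesis, and *Ackr3* is an atypical chemokine receptor. In that order *Ifitm3* came at place 21, *Ifitm1* at place 35 and *Ifitm2* at place 156.

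Nearest to *Ifitm3* were *Clpb* (0.0255), *Nlrp3* (0.0380), *Bend3* (0.0418), *Prune2* (0.0430) and *Rnf180* (0.0437), with *Ifitm2* at place 55, *Ifitm1* at place 313 and *Ifitm6* at place 994. *Nlrp3*, the sensor of an inflammasome, was at 150.2 and 152 CPM with WT cells and at 90.6, 89.1 and 102 CPM with *Adam17*-/- cells. *Bend3* was near both members. The profiles share the 5 libraries, and closeness in them is a description of this measure.

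The direction of the members did not depend on the scaling, while its size did. With library size as the only scaling, the log2 fold changes were -0.75 (*Ifitm1*), -0.42 (*Ifitm2*), -0.56 (*Ifitm3*) and -0.79 (*Ifitm6*), and the median of all genes stood at 0.16 and not at 0.01. Under that scaling 73.7% of the genes that passed were higher with *Adam17*-/- cells, against 46.9% with TMM. All 4 members remained lower under each of the 15 or 16 settings run for them, with log2 fold changes from -1.18 (*Ifitm6*) to -0.42 (*Ifitm2*).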

How the data were processed

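The authors sequenced paired-end libraries of poly-A RNA on a BGISEQ-500 platform and aligned the reads to GRCm38. The paper names HISAT, Bowtie2 and DESeq2, and the submitters' processing notes name Bowtie2, DESeq2 and also RSEM, with versions not given in the sources used here. The authors deposited unnormalized expected counts for the transcripts of each library. FPKM values, scaled to transcript length and library size, were deposited beside them. How strand was handled is not given in the sources used here.

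Expected counts were summed per Entrez gene and rounded, and FPKM values were summed per gene. Groups came from the sample labels. The quasi-likelihood test of edgeR 4.0.16 (R 4.3.3) was run on the counts of all 5 libraries, with TMM factors, the filterByExpr filter and no covariate, with Benjamini-Hochberg adjustment over 12576 genes and a threshold of 0.05. CPM used TMM-normalized totals, and log2 CPM a prior count of 2. Alternatives were DESeq2 1.42.0, limma 3.58.1 on log2(FPKM + 0.1) and log2(FPKM + 1), other scalings and filters, paralogs summed, the replicate number as a block, and each replicate left out. On simulated counts for 12576 genes, edgeR found 186 of 200 genes changed by 1.5 on the log2 scale, with 19 unchanged genes passing, and DESeq2 found 180 with 15. The edgeR count required the right direction and the DESeq2 count did not. In the data 3983 genes passed and the members had log2 fold changes of -0.93 to -0.57. The simulation therefore does not measure how well changes of that size or number are found.

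The members, gene lists and tests were chosen with earlier results of these data known. Named genes were all members, *Adam17*, genes of the lists (those with the largest log2 fold changes in each direction first), neighbours within 100 kb, and the 5 genes nearest in profile to *Ifitm6* and *Ifitm3*. Other list members, *S100a8* among them, were named as textbook examples after their values were seen. Gene models came from GENCODE and windows at start sites from RefSeq GRCm38.p6, and motifs and coding identity were computed with Python 3.11.15 and Biopython 1.88. The labels do not say that replicates were separate cultures or animals, and p-values measure only the spread between these libraries. No extraction or sequencing batch is given in the sources used here, and no within-batch value could be computed.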

Additional observations from a re-analysis of the deposited data

How the results depend on the processing

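*Ifitm1*, *Ifitm2*, *Ifitm3* and *Ifitm6* were lower with *Adam17*-/- cells in edgeR, DESeq2 and limma under every alternative fitted across all genes. These settings refit the same libraries or part of them. As the members were chosen on this contrast, their direction there is a description and not a test. None of them reached an absolute log2 fold change of 1 in the TMM fit of all 5 libraries. With the replicate block the values were -1.01 (*Ifitm1*) and -1.04 (*Ifitm6*), beyond that fold. Library size only, limma with 0.1 and limma with 1 each gave log2 fold changes of -0.42 for *Ifitm2* and -0.56 for *Ifitm3*, and moved the median of all genes to 0.16, 0.15 and 0.11. Summing paralogs moved *Ifitm2* to -0.65 (with *Ifitm3*) and -0.74 (all clustered members). Leaving out 1 library gave -0.99 to -0.78 for *Ifitm1*, -0.63 to -0.52 for *Ifitm2*, -0.76 to -0.64 for *Ifitm3* and -1.18 to -0.63 for *Ifitm6*, the last without WT replicate 1 and 2 in turn. Genes passing as higher (1869) numbered 3019 with library size only, 2854 with limma and 1, 422 with a log2 fold change of 1 or more, 1216 with the replicate block and 1089 to 2460 with 1 library left out. Genes passing as lower (2114) numbered 1077 with library size only, 706 with limma and 0.1, 967 with limma and 1, 109 with the fold threshold, 1126 with the replicate block and 926 to 2940 with 1 library left out. Passing genes were higher in 73.7%, 77.9% and 74.7% of cases with library size only, limma with 0.1 and limma with 1, against 46.9%. Interferon-stimulated genes passing as higher (9) numbered 0 with the fold threshold, 5 with the replicate block and 1 to 11 with 1 library left out, and those passing as lower (1) numbered 0 with limma and 0.1, 0 with the fold threshold and 1 to 3 with 1 library left out. The cause of these moves was not tested, apart from the fold threshold, which can only lower a count. Same-numbered libraries did not deviate together from their group means (correlations of -0.12 and -0.05 over genes). The deviations of the 2 WT libraries mirror each other, so these values say little about pairing. The replicate numbers were not read as pairs. With 2 WT libraries, the spread in that group rests on 1 difference. *Ifitm10* lies under the level of 3 counts that this depth can order.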
